A study of Sus scrofa with 12 samples.

Results

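FOXJ1 is the forkhead transcription factor that switches on the genes of motile cilia. It is described here with the other regulators that turn an epithelial cell into a multiciliated one: GMNC, MCIDAS, TP73, MYB, RFX2, RFX3, CCNO, DEUP1 and CDC20B. The genes were taken by symbol from the deposited table, and 7 of the 10 symbols were found, each on 1 of the 30461 gene rows. MCIDAS, DEUP1 and CDC20B were not analysed here, since no row carries those symbols. The 7 genes found were FOXJ1 (ENSSSCG00025047743), RFX2 (ENSSSCG00025075701), RFX3 (ENSSSCG00025041868), MYB (ENSSSCG00025011979), TP73 (ENSSSCG00025043226), CCNO (ENSSSCG00025058350) and GMNC (ENSSSCG00025001833).

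The libraries are bulk 3′ mRNA sequencing of pig (Sus scrofa) oviduct epithelial cells in 3 groups of 4. Fresh cells are the epithelium scraped out of the oviduct, lysed without any culture. The spheroids, cells grouped into small balls in culture, had been formed either in DMEM/F12, a common basal medium, or in a medium named only Incubation Medium. The library names of the DMEM/F12 spheroids also carry FBS and those of the others Diff, which the labels do not explain. Strain, age, sex, stage of the oestrous cycle, days in culture and the number of animals behind a library are not given in the sources used here, so p-values measure the spread between these libraries.

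Multiciliated cells line the oviduct beside secretory cells, and their beating cilia move fluid, eggs and embryos. To become multiciliated, a cell leaves the division cycle and turns on GMNC and MCIDAS, relatives of the replication inhibitor geminin that have no DNA-binding domain of their own and work through E2F4 or E2F5 with a DP partner. These complexes raise TP73 and MYB, factors that act early, and the genes that build centrioles in bulk, such as CCNO, DEUP1 and CDC20B. FOXJ1 acts with the RFX factors on the genes for dynein arms, radial spokes and other parts of the beating axoneme. Signalling through Notch holds this programme back in many epithelia.

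Library totals, with the 92 spike-in rows included, ranged from 5045218 to 6026901 counts in fresh cells, 7583584 to 8068213 in DMEM/F12 spheroids and 7585813 to 8603809 in incubation medium spheroids. Values are CPM, counts scaled to a common library total after TMM scaling, which corrects library totals for differences in RNA composition. A gene is called where edgeR's quasi-likelihood test gave an adjusted p under 0.05 (Benjamini-Hochberg) over the 14070 genes tested. In bulk libraries fewer multiciliated cells and less RNA per cell cannot be told apart. Both spheroid groups were set against the same 4 fresh cell libraries.

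All 7 regulators found were lower in both kinds of spheroid than in fresh cells, and no spheroid library reached the lowest fresh cell library for any of them. In DMEM/F12 spheroids 7 of 7 were called lower, where 70.7% of all tested genes were called and 35.7% were called lower. Non-overlapping groups with lower spheroids were found for 7 of 7, against 32.9% of all tested genes (and 32.4% with higher spheroids). In incubation medium spheroids 7 of 7 were again called lower, against 35.8% lower and 71.7% called in all among the tested genes. No overlap was found for 7 of 7, against 32.5% of all tested genes on the lower side and 32.4% on the higher side. The median log2 fold change was -2.42 in DMEM/F12 and -2.75 in incubation medium, where that of all tested genes was -0.01 in both. CCNO passed the filter on low counts only through the fresh cells, where it is high, so it could hardly have been counted without being lower. The other 6 passed the same filter in the spheroid libraries alone.

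**Figure D1:**
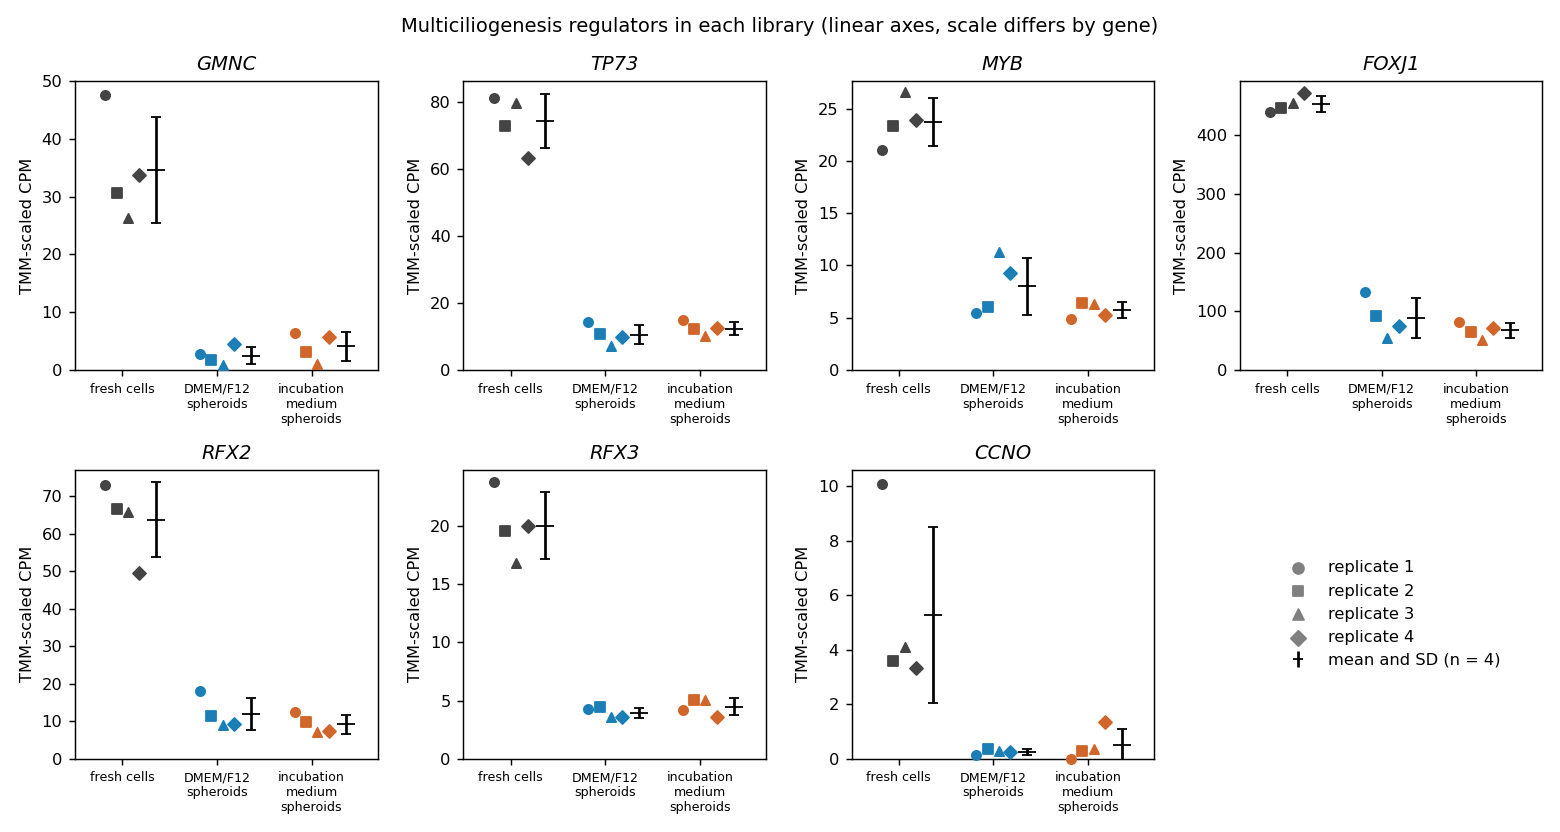
TMM-scaled CPM (vertical axes, linear, with a scale of their own for each gene) of the 7 regulators in 4 libraries per group. Marker shape gives the replicate number, and the bars to the right of the points are the mean and SD (n = 4). The fresh cell points lie above all spheroid points in every panel.

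GMNC, which stands at the top of the cascade, had 47.7, 30.7, 26.4 and 33.7 CPM in fresh cell replicates 1 to 4. It had 2.80, 1.74, 0.926 and 4.44 CPM in DMEM/F12 spheroids and 6.44, 3.07, 0.985 and 5.78 CPM in incubation medium spheroids. The highest spheroid library was thus far below the lowest fresh cell library, and replicate 3 was the lowest in all 3 groups. GMNC was 13.8-fold lower in DMEM/F12 (95% confidence interval 7.25 to 26.2, log2 fold change -3.79, SE 0.43, edgeR adjusted p = 2.35e-06). In incubation medium it was 8.48-fold lower (interval 4.63 to 15.5, log2 fold change -3.08, SE 0.41, edgeR adjusted p = 9.6e-06). Only 2.15% of tested genes had a lower log2 fold change than GMNC in DMEM/F12, and 4.28% in incubation medium. Spheroid libraries held 7 to 54 GMNC counts, so counting error alone is 13.6 to 37.8% of a library's value.

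TP73, a transcription factor needed for multiciliated cells, gave 81.1, 72.8, 79.7 and 63.3 CPM in fresh cells. It gave 14.2, 10.7, 7.28 and 9.85 CPM in DMEM/F12 spheroids, and 14.8, 12.1, 9.97 and 12.5 CPM in incubation medium spheroids. In both media replicate 1 was the highest and replicate 3 the lowest. The fall was 7.04-fold in DMEM/F12 (interval 5.48 to 9.03, log2 fold change -2.81, edgeR adjusted p = 4.31e-09) and 6.0-fold in incubation medium (interval 4.69 to 7.68, log2 fold change -2.59, edgeR adjusted p = 7.98e-09).

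MYB is a factor of dividing progenitors that multiciliated precursors also use early, while they make centrioles. Fresh cells had 21.1, 23.3, 26.6 and 23.9 CPM, DMEM/F12 spheroids 5.47, 6.04, 11.2 and 9.25 CPM, and incubation medium spheroids 4.89, 6.41, 6.28 and 5.24 CPM. MYB had the smallest fall of the 7 genes in each medium, and its spheroid libraries were ordered unlike those of TP73: replicate 1 was the lowest in both media. It was 2.97-fold lower in DMEM/F12 (interval 2.21 to 3.98, log2 fold change -1.57, edgeR adjusted p = 6.05e-06) and 4.15-fold lower in incubation medium (interval 3.06 to 5.62, log2 fold change -2.05, edgeR adjusted p = 5.88e-07). Its count was not whole in 1 library; the other 6 regulators had whole counts throughout.

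FOXJ1 itself lay within a narrow band in fresh cells, at 439.7, 447, 455 and 471 CPM, a coefficient of variation of 2.99% where counting error alone gives 1.99 to 2.04% per library. DMEM/F12 spheroids had 133, 91.2, 54.8 and 74.8 CPM, and incubation medium spheroids had 82.1, 65.0, 51.2 and 71.6 CPM. The libraries of a medium therefore spread more than the fresh cells, with coefficients of variation of 37.7% and 19.2% against counting errors of 3.02 to 4.91% and 3.81 to 4.9%. Replicate 1 was the highest and replicate 3 the lowest in both media. FOXJ1 was 5.11-fold lower in DMEM/F12 (interval 3.72 to 7.02, log2 fold change -2.35, SE 0.21, edgeR adjusted p = 2.31e-07) and 6.71-fold lower in incubation medium (interval 4.86 to 9.28, log2 fold change -2.75, SE 0.22, edgeR adjusted p = 6.08e-08). Of all tested genes 7.16% and 5.59% had a lower log2 fold change than FOXJ1 in these comparisons.

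RFX2 and RFX3 are winged-helix factors that bind the X-box of ciliary gene promoters. RFX2 had 72.9, 66.5, 65.8 and 49.6 CPM in fresh cells, 18.1, 11.3, 8.87 and 9.13 CPM in DMEM/F12 spheroids and 12.5, 9.74, 7.02 and 7.39 CPM in incubation medium spheroids. As with FOXJ1, replicate 1 was the highest and replicate 3 the lowest spheroid library in each medium. RFX2 was 5.37-fold lower in DMEM/F12 (log2 fold change -2.42, SE 0.22, edgeR adjusted p = 2.52e-07) and 6.93-fold lower in incubation medium (log2 fold change -2.79, SE 0.23, edgeR adjusted p = 8.34e-08). RFX3 had 23.8, 19.5, 16.8 and 20.0 CPM in fresh cells. Its spheroid values were close together, at 4.26, 4.41, 3.57 and 3.60 CPM in DMEM/F12 and 4.18, 5.07, 5.05 and 3.63 CPM in incubation medium. RFX3 was 5.04-fold lower in DMEM/F12 (log2 fold change -2.33, SE 0.16, edgeR adjusted p = 1.65e-08) and 4.46-fold lower in incubation medium (log2 fold change -2.16, SE 0.16, edgeR adjusted p = 3.05e-08).

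CCNO, a cyclin-like gene needed for the mass production of centrioles, was near the limit of detection. Fresh cells held 58, 20, 22 and 17 counts, DMEM/F12 spheroids 1, 3, 2 and 2, and incubation medium spheroids 0, 2, 3 and 10. All DMEM/F12 libraries were at or under 3 counts, the most that a count of 0 allows, so only a bound is given. With 5.28 ± 3.23 CPM (SD, n = 4) in fresh cells against a mean floor of 0.368 CPM, the bound with all fresh libraries is 14.4-fold (edgeR adjusted p = 3.5e-05). Without fresh cell replicate 1, which stood apart, the fresh cell mean was 3.68 CPM and CCNO was at least 10-fold lower. In incubation medium it was at 0.495 ± 0.587 CPM (SD, n = 4), a log2 fold change of -3.42 (SE 0.59, edgeR adjusted p = 0.000125). Only replicate 4 was above the floor there, and the log2 fold change without it was -4.54, again a fitted value of a gene at the floor.

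**Figure D2:**
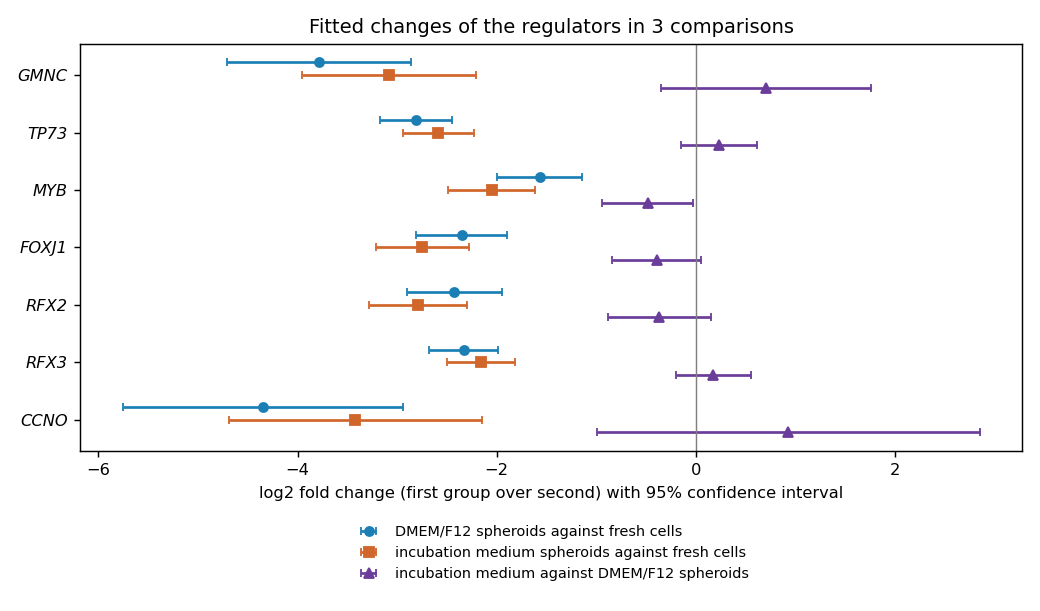
Fitted log2 fold changes (horizontal axis) with 95% confidence intervals for the 7 regulators in 3 comparisons, from edgeR. All intervals against fresh cells lie below 0; between the media only the interval of MYB, -0.94 to -0.03, does not include 0, and MYB was not called after adjustment. The fitted CCNO value in DMEM/F12 is of a gene at the floor and is no bound.

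Between the media none of the 7 regulators was called by edgeR (0 of 7, against 25.0% of all tested genes). Of the 7, MYB alone had an unadjusted p under 0.05, and DESeq2 called 0. The intervals here come from the fit without a term for the replicate number, and 0 of 7 were called with that term as well. Libraries of the media overlapped for each regulator. FOXJ1 was 1.31-fold lower in incubation medium than in DMEM/F12, with an interval on the log2 scale of -0.84 to 0.06 (edgeR adjusted p = 0.192). It was called without DMEM/F12 replicate 3, the lowest library of its group (log2 fold change -0.56, edgeR adjusted p = 0.0369), and stood at -0.13 without DMEM/F12 replicate 1, the highest. RFX2 differed by -0.37 (interval -0.89 to 0.15), and MYB by -0.48 (edgeR adjusted p = 0.114; -0.63 and 0.0396 without DMEM/F12 replicate 1). The values of TP73, at 0.23 (interval -0.15 to 0.61), RFX3, at 0.18 (interval -0.20 to 0.55), and GMNC, at 0.70 (interval -0.35 to 1.75), were above 0. These intervals, from the fit without the replicate term, leave room for differences of either sign in the 5 genes other than MYB and CCNO. With that term the SE was smaller for FOXJ1 (-0.36, SE 0.155 against 0.209) and RFX2 (-0.36, SE 0.147 against 0.241). The intervals given may thus be too wide for FOXJ1 and RFX2. The media were not shown to act alike.

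The order of the 3 groups by mean thus put fresh cells first for each gene, and the media beside each other with no call between them. FOXJ1, RFX2 and MYB had the higher mean in DMEM/F12, while GMNC, TP73, RFX3 and CCNO had it in incubation medium.

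The falls of the regulators were set against that of FOXJ1 within each library, as the log2 ratio of a gene to FOXJ1, for 5 genes in 3 comparisons (15 exact permutation tests, two-sided; CCNO was too low). The ratio of GMNC to FOXJ1 was lower in DMEM/F12 spheroids than in fresh cells by a difference of -1.38 (exact permutation p = 0.0571, adjusted 0.214). That of MYB was higher in incubation medium spheroids than in fresh cells by 0.76 (exact permutation p = 0.0286, adjusted 0.214, the smallest raw p that 4 against 4 allow). The ratio of TP73 was 0.59 higher in incubation medium than in DMEM/F12 (exact permutation p = 0.0286, adjusted 0.214). For RFX2 the differences from fresh cells were -0.02 in both media (exact permutation p = 0.857 and 0.886, adjusted 0.949). A lone test of 4 against 4 cannot pass an adjustment over 15, so the adjusted values do not bear on whether the falls were equal. By replicate number, the ratio of GMNC was lower in DMEM/F12 spheroids than in fresh cells in 4 of 4 pairs (differences -2.24 to -0.20). The ratio of MYB was higher in incubation medium spheroids than in fresh cells in 4 of 4 pairs (0.37 to 1.11), and that of TP73 was higher in incubation medium than in DMEM/F12 in 4 of 4 (0.40 to 0.75). So were those of RFX3 (0.07 to 0.68) and GMNC (0.17 to 1.83). The ratio of TP73 was also lower in DMEM/F12 spheroids than in fresh cells in 4 of 4 pairs (-0.77 to -0.0002). In the other comparisons the pairs went both ways. A paired exact test of 4 pairs cannot go below 0.125 and was not run.

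The partners through which GMNC and MCIDAS act included genes called in each direction, in shares near those of all genes. Of the 5 genes E2F4, E2F5, TFDP1, TFDP2 and GMNN, 2 were called higher and 2 lower in DMEM/F12 (median log2 fold change 0.25), and 3 higher and 2 lower in incubation medium (median 0.41). The background was 35.1% on the higher and 35.7% on the lower side in DMEM/F12, and 35.8% each way in incubation medium. E2F4, which carries the complexes to DNA, rose from 18.7 ± 2.33 CPM (SD, n = 4) in fresh cells to 31.3 ± 2.00 in DMEM/F12 and 35.5 ± 2.60 in incubation medium. Its log2 fold changes were 0.74 and 0.92 (edgeR adjusted p = 1.78e-05 and 1.9e-06), and 5 of 12 libraries had a count that is not whole. E2F5, its close relative, was at 21.1 ± 3.12, 25.0 ± 1.73 and 37.9 ± 2.16 CPM in the same order. It was not called in DMEM/F12 (0.25, edgeR adjusted p = 0.0543), was called higher in incubation medium (0.85, edgeR adjusted p = 6e-06), and differed between the media (0.60, edgeR adjusted p = 0.000755). The DP subunit TFDP1 rose by 0.29 and 0.41, and TFDP2 had log2 fold changes of -0.86 and -0.66. GMNN, geminin, which binds and holds back its relatives, fell from 97.3 ± 16.6 CPM to 46.4 ± 4.10 and 37.1 ± 6.03, with log2 fold changes of -1.07 and -1.39 (edgeR adjusted p = 5.72e-06 and 4.61e-07).

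Among 14 other listed factors, with RFX and MYB family members and ciliary genes, 10 symbols were in the table and 8 genes were tested. In DMEM/F12 4 were called lower, 2 higher and 2 were not called; in incubation medium 4 were lower, 3 higher and 1 was not called. These shares are near those of all tested genes, of which 70.7% and 71.7% were called. ULK4, a kinase-like gene linked to motile cilia, had 11.3 ± 2.30, 2.59 ± 0.837 and 2.85 ± 0.551 CPM in fresh cells, DMEM/F12 and incubation medium (log2 fold changes -2.12 and -1.97). FANK1 and JAZF1 have been reported to promote multiciliated cells in the airway. FANK1 changed by -1.22 and -1.34, JAZF1 by -1.01 and -0.74, and the broadly expressed RFX1 by -0.87 and -0.83. RFX5, known for its part in the regulation of antigen presentation genes, was not called in either medium (0.08 and -0.10).

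The paralogs of MYB went the other way. MYBL2, the MYB family member of dividing cells, had 1.74 ± 0.294 CPM (SD, n = 4) in fresh cells, against 42.7 ± 11.8 with DMEM/F12 and 61.2 ± 21.7 with incubation medium. Its log2 fold changes were 4.60 and 5.12 (edgeR adjusted p = 4.38e-08 and 1.39e-08), and 7 of 12 libraries had a count that is not whole. MYBL1 rose by 1.45 and 1.11. Of 21 listed proliferation genes 13 were tested, and 13 of 13 were called higher in each medium. All 13 passed the filter on low counts in the spheroid libraries alone, where they are high. Whether each would pass in fresh cells alone was not tested. A gene let in only through the spheroids could hardly have been counted without being higher. TYMS, named after its values had been seen, was at 0.96 CPM in fresh cells. The summed level of the list was 59.4 to 87.5 CPM in fresh cells, 484.5 to 568 in DMEM/F12 and 546 to 788 in incubation medium. Among all tested genes 35.1% were called higher in DMEM/F12 and 35.8% in incubation medium. MYB fell in the same libraries. The part of dividing cells in these values was not tested.

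Of 18 listed genes of centriole duplication, 8 were in the table and tested, and in each medium 5 were called lower and 3 higher. Among all tested genes 35.7% were lower and 35.1% higher in DMEM/F12, and 35.8% each in incubation medium. CCDC78, reported to take part in centriole amplification in multiciliated cells, had 56.1 ± 4.67 CPM (SD, n = 4) in fresh cells and fell to 1.55 ± 0.649 in DMEM/F12 and 1.69 ± 0.568 in incubation medium. Its log2 fold changes were -5.16 and -5.04 (edgeR adjusted p = 1.88e-10 and 2.22e-10). They are larger in size than those of the regulators other than CCNO, which was at the floor in DMEM/F12. The centriolar satellite gene PCM1 changed by -0.65 and -0.64, and CEP63 by -0.65 and -0.32. CEP192, which recruits material to dividing cells' centrosomes, rose by 0.45 and 0.69, and 11 of 12 libraries had a count that is not whole. CEP152 and SASS6, which also serve centriole duplication in the division cycle, rose by 0.88 and 0.76 in DMEM/F12. In incubation medium they rose by 0.81 and 0.77. The SASS6 libraries overlapped those of fresh cells in both media, and CEP152 was at only 1.10 CPM in fresh cells. SPICE1 and CEP97, also on the list, changed by -0.83 and -1.07 in DMEM/F12. Their changes in incubation medium were -0.73 and -1.17. CEP152, SASS6, SPICE1 and CEP97 were named after their values had been seen.

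**Figure D3:**
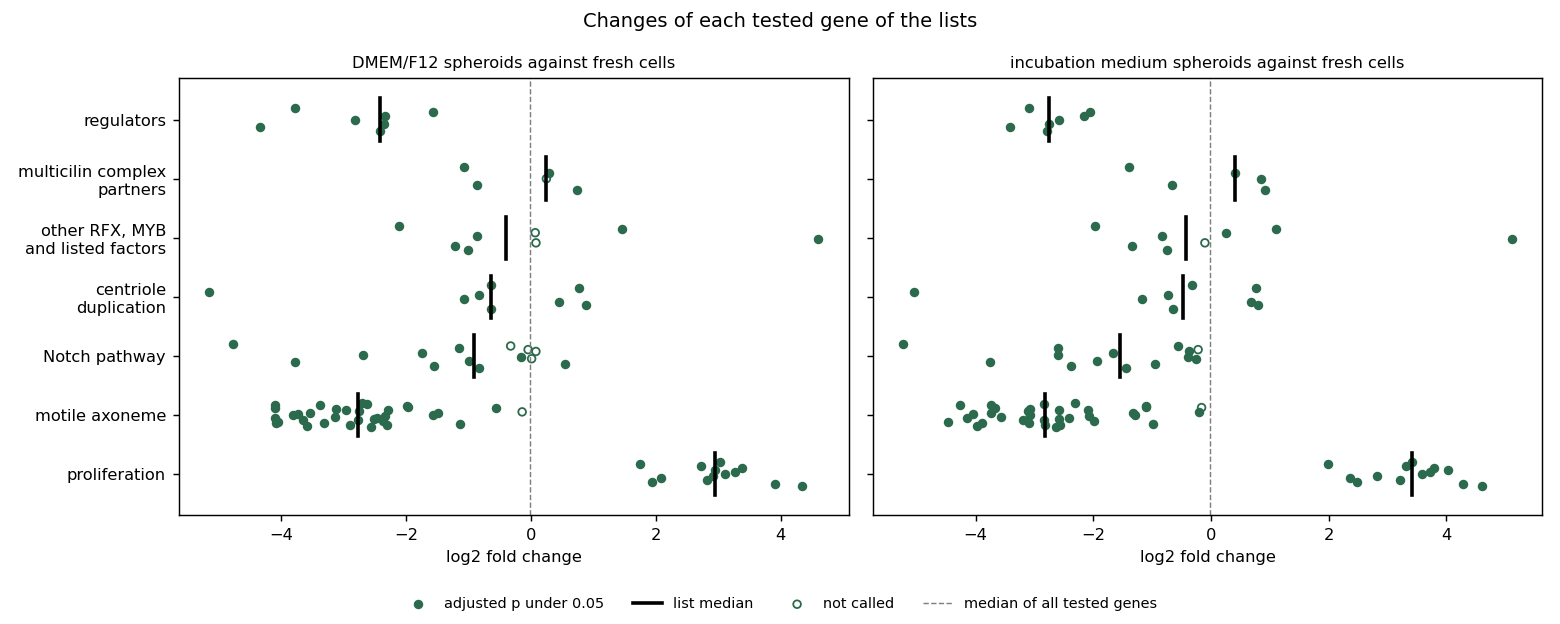
Log2 fold change (horizontal axis) of each tested gene of 7 lists, in DMEM/F12 spheroids (left) and incubation medium spheroids (right) against fresh cells. Filled points were called, open points were not, black bars are list medians and the dashed line is the median of all tested genes. The regulators and the axoneme genes lie on the lower side and the proliferation genes on the higher side, while the other 4 lists hold genes on both sides in at least 1 medium.

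Of 14 tested Notch pathway genes, 9 were called lower and 1 higher in DMEM/F12 (median log2 fold change -0.91), beside 35.7% lower and 35.1% higher among all tested genes. In incubation medium 13 were called lower and none higher (median -1.55), beside 35.8% each way. Of the 14, 13 passed the filter in the spheroid libraries alone, and the other entered only through the fresh cells. HES1, a repressor that Notch switches on, fell from 322 ± 60.7 CPM (SD, n = 4) to 50.0 ± 9.99 and 53.3 ± 8.56 (log2 fold changes -2.68 and -2.59). The ligand JAG1 fell from 227 ± 34.5 CPM to 77.6 ± 4.29 and 43.9 ± 5.51 (-1.55 and -2.37) and differed between the media (-0.82, edgeR adjusted p = 0.000174). The receptor NOTCH2 was not called in DMEM/F12 (0.08) and was lower in incubation medium (-0.37); RBPJ, the DNA-binding partner of Notch, changed by -0.16 and -0.39. HEY2, another Notch target, named after its values had been seen, had log2 fold changes of -3.78 and -3.76.

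The motile axoneme genes on which FOXJ1 and the RFX factors act served as markers of multiciliated cells. Of 74 listed, 34 symbols were in the table on 35 rows, none at 0 throughout the fresh cells, and 33 genes were tested on 34 rows, ODAD3 standing on a pair of rows with nearly the same values. In each medium 33 of the 34 rows were called lower, with median log2 fold changes of -2.77 in DMEM/F12 and -2.83 in incubation medium. Among all tested genes 35.7% were called lower in DMEM/F12 and 35.8% in incubation medium. Of the 34 rows, 33 passed the filter in the spheroid libraries alone. TPPP3, a microtubule-binding marker of ciliated cells, had log2 fold changes of -2.31 and -2.56. ROPN1L, a radial spoke protein, had -2.63 and -2.83, and the dynein light chain DYNLRB2 -3.15 and -3.56. The smallest differences were those of CFAP298 (-0.56 and -0.16), not called in incubation medium, and ENKUR (-0.14 and -0.21), not called in DMEM/F12.

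The summed level of these rows was 3438, 2776, 3004 and 2813 CPM in fresh cells, 836, 639.6, 494 and 583 CPM in DMEM/F12 spheroids and 800.4, 696, 533 and 651 CPM in incubation medium spheroids. Replicate 1 was again the highest and replicate 3 the lowest in both media, the order seen for FOXJ1, RFX2 and TP73. Per 1000 CPM of the axoneme sum, FOXJ1 in fresh cells stood at 152 ± 17.3 CPM (SD, n = 4), against 135 ± 20.7 in DMEM/F12 and 100.5 ± 7.43 in incubation medium, where all 4 libraries were below all others. Without CFAP298 and ENKUR, left out after their values had been seen to differ least, which of itself raises the spheroid values, FOXJ1 stood at 166 ± 19.0, 199.5 ± 14.9 and 153 ± 12.8, and fresh cells and incubation medium overlapped. Incubation medium (142.5 to 169.9) stayed below DMEM/F12 (180.2 to 212.6) without overlap.

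**Figure D4:**
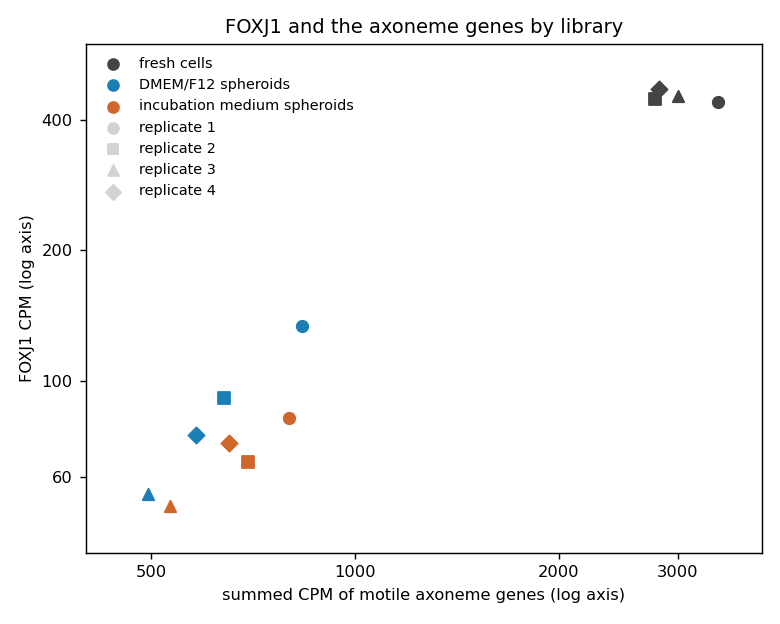
FOXJ1 CPM (vertical, log axis) against the summed CPM of 34 motile axoneme rows (horizontal, log axis) in the 12 libraries; colour gives the group and marker shape the replicate number. Fresh cells sit apart at 2776 to 3438 summed CPM, and in each medium replicate 1 is at the upper right and replicate 3 at the lower left of its group.

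Markers of other cell types were read in the same libraries, and their part in the falls of the regulators was not tested. Their counts of called genes stand beside 70.7% called among all tested genes in DMEM/F12 and 71.7% in incubation medium. Of 5 tested secretory cell genes, 4 were called lower and 1 higher in each medium, and their sum went from 19070 to 30120 CPM in fresh cells to 1047 to 2096 and 1023 to 2087. OVGP1 made up most of the fresh cell sum (22240.9 of 26740 CPM on average), so the fall of the sum is mostly its own. MUC1 was the gene called higher (159, 545 and 474 CPM on average), and SOX17 changed least (log2 fold changes -0.37 and -0.29). Of 6 stromal and smooth muscle genes, 2 were lower and 1 higher in DMEM/F12 (sums 253 to 415 CPM in fresh cells, 1074 to 1223 in DMEM/F12), and 4 were lower and 1 higher in incubation medium (sums 232.5 to 542). TAGLN made up most of these sums (266, 1119.9 and 380.2 CPM on average) and was the gene called higher, while COL3A1 and COL1A2 were lower in both media. Of the 6 genes, 5 passed the filter on low counts in the spheroid libraries alone. COL3A1, at 0.57 and 0.36 CPM in the media, entered only through the fresh cells, so its calls were nearly fixed in advance. DES was at 0 in all fresh cell libraries. Of 4 endothelial genes, 2 were higher and 1 lower in DMEM/F12 and 3 higher and 1 lower in incubation medium (sums 43.5 to 59.4, 142 to 256 and 97.1 to 162 CPM). VWF was at 0 in the fresh cells and in DMEM/F12. Of 4 leukocyte genes, PTPRC was lower in both media, and CD79A was higher in incubation medium and made up most of the sums (449.8 to 496, 421 to 483 and 503 to 602 CPM), again with fractional counts in 11 of 12 libraries. MS4A1 was at 0 in the fresh cells.

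To find the genes whose levels moved most like FOXJ1, the root mean square difference of log2 CPM was taken after each gene's own mean had been subtracted, over 7077 genes with a symbol and a mean of at least 10 CPM. Over the 12 libraries the nearest gene was TPPP3, at 0.17 on the log2 scale, followed by ROPN1L (0.18), DIXDC1 (0.18), PROS1 (0.21), COQ8A (0.21), RFX2 (0.21), PIERCE1 (0.22) and CLK1 (0.22). The median of the candidates was 1.36. TPPP3, ROPN1L and PIERCE1, a protein of the inner wall of ciliary microtubules, are cilium genes, while PROS1 is the anticoagulant protein S, COQ8A serves coenzyme Q synthesis and CLK1 is a kinase of splicing factors. RFX2 ranked 6, TP73 31 (0.28), MYB 416 (0.67) and GMNC 722 (0.82) among these genes. RFX3 and CCNO were below the minimum level. Since the fresh cells stand apart for most tested genes, this measure is mostly set by the size of the fall.

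**Figure D5:**
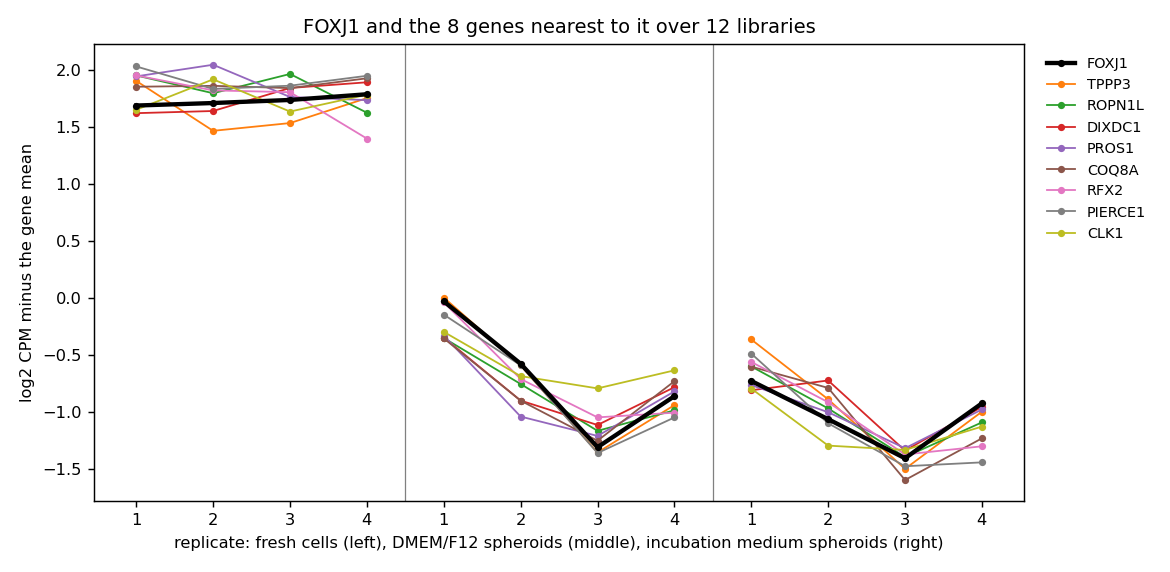
Log2 CPM minus the gene's mean over 12 libraries (vertical axis) for FOXJ1 (thick line) and the 8 genes nearest to it, by replicate within fresh cells (left), DMEM/F12 spheroids (middle) and incubation medium spheroids (right). Lines join the libraries of a gene and imply no order of replicates; the lowest FOXJ1 point of each spheroid group is replicate 3.

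Over the 8 spheroid libraries alone the nearest genes were TPPP3 (0.15), TMEM176A (0.15), VMAC (0.16), the dynein subunit WDR63 (0.16), ROPN1L (0.16), C3H16orf54 (0.17), NCALD (0.17) and OSBPL5 (0.18), where the median of the candidates was 0.46. RFX2 ranked 19 (0.19) and TP73 346 (0.31) of 7077. MYB ranked 6575 (0.67) and GMNC 6894 (0.82). The measure also grows with a gene's own spread, and GMNC, like FOXJ1, was lowest in replicate 3 in both media. Counting error alone was 10.8 to 16.0% of a spheroid library's value for MYB and 13.6 to 37.8% for GMNC, against 3.02 to 4.91% for FOXJ1, and its part in these ranks was not tested.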

How the data were processed

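RNA was measured in 12 pig libraries, 3 groups of 4. Per the labels' protocols, an oligo-dT primer started the cDNA, which was then tagmented, indexed and amplified. Per the submitters' processing notes, fastp 0.24.0, STAR 2.7.11, SAMtools 1.22.1 and featureCounts (Subread 2.1.1) were used; the genome build is not given in the sources used here. The authors deposited a CPM value and a count for each gene in each library. By their values the deposited counts are expected counts, of which 19.1 to 20.5% of the nonzero values in a library are not whole. They were rounded to whole numbers, the 92 spike-in rows were left out, and the deposited CPM was not used. No gene position or sequence is printed: the identifiers match no table used here.

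Tests used edgeR 4.0.16 (limma 3.58.1, R 4.3.3): filterByExpr by group, TMM, and a quasi-likelihood fit with a term for each group over the 12 libraries. Log2 CPM used a prior count of 2. Same-numbered libraries deviated together from their group means (r = 0.196 to 0.293 between spheroids and fresh cells, 0.394 to 0.516 between the media, over all tested genes). The shared replicate numbers of the labels were therefore read as pairing the samples, though the labels do not say what the numbers stand for. The fit without a block is the one reported. The genes and lists were chosen with earlier results of these data known. Named genes are the 7 regulators, all tested genes of the partner and related factor lists, up to 4 others per list by mean CPM, and the 8 nearest to FOXJ1; others are marked where named. The values of 1 listed gene are not reported here. Alternatives were RLE size factors, DESeq2 1.42.0, other filters, library totals, the groups compared alone, whole counts only, the replicate block and each library left out. Intervals and floors cover these libraries and counting error only. The edgeR script was tested on simulated data.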

Additional observations from a re-analysis of the deposited data

Results flagged for a closer look

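CCNO in fresh cells had 1 library apart from the others: replicate 1 stood at 10.1 CPM (58 counts), and the other 3 at 3.33 to 4.11 CPM (17 to 22 counts). The gap to the nearest library took a share of 0.884 of the whole range, above Dixon's 95% limit for 4 samples. Of the 21 sets of 4 libraries looked at (7 genes in 3 groups) this was the only one past the limit, which chance passes for about 1 in 20. Without that library the fresh cell mean of CCNO was 3.68 CPM. GMNC, TP73, RFX2 and RFX3 were also highest in fresh cell replicate 1, at 47.7, 81.1, 72.9 and 23.8 CPM, so 5 of the 7 regulators shared this library as their highest.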

How the results depend on the processing

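Against fresh cells, the 14 results of the 7 regulators kept their direction and stayed called in all 222 alternatives run. CCNO is among them, but it passed the filter on low counts only through the fresh cells. Its part of this tally was thus nearly fixed in advance and shows little. FOXJ1 ranged from -2.60 to -2.17 on the log2 scale in DMEM/F12 and from -2.84 to -2.62 in incubation medium, both limits set by leaving out single libraries. With the replicate block FOXJ1 stood at -2.42, -2.78 and, between the media, -0.36 (edgeR adjusted p = 0.0877), and no call of a regulator changed. Between the media MYB then stood at -0.46 (edgeR adjusted p = 0.053, against 0.114 without the block). RFX2 stood at -0.36 (edgeR adjusted p = 0.0738, against 0.296). The pairing moved no count of called genes by over 1.5 times (10471, 10590 and 4613 with it, 9951, 10085 and 3522 without). Testing only genes with whole counts left 5923 genes and lowered these counts to 4179, 4242 and 1344. Between the media, FOXJ1 ranged from -0.56 to -0.13 as single libraries were left out. CCNO changed sign between the media without incubation medium replicate 4 (-0.21, edgeR adjusted p = 0.898; from -0.21 to 1.35 with single libraries left out, p range over its alternatives 0.246 to 0.898), with counts at or under the floor in all libraries left. MYB could not be tested with whole counts only. Depth limits CCNO and GMNC most, at 0 to 10 and 7 to 54 counts in spheroid libraries.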

Other observations

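Some genes varied like FOXJ1 among the 8 spheroid libraries although they had moved the other way against fresh cells. TMEM176A, a small membrane protein, was at 9.86 ± 4.17 CPM (SD, n = 4) in fresh cells and rose to 50.5 ± 19.0 in DMEM/F12 and 45.3 ± 6.48 in incubation medium (log2 fold changes 2.36 and 2.20, edgeR adjusted p = 4.78e-06 and 9.35e-06). OSBPL5, a lipid transfer protein, rose from 10.9 ± 1.46 to 20.0 ± 3.99 and 16.9 ± 3.44 CPM (log2 fold changes 0.87 and 0.63, edgeR adjusted p = 0.000588 and 0.00662). VMAC, by contrast, fell from 124 ± 6.91 to 12.5 ± 4.99 and 10.7 ± 3.01 CPM (log2 fold changes -3.30 and -3.53), and WDR63 had log2 fold changes of -2.68 and -3.16.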
